A study of Oryza sativa with 4 samples.

Results

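The outermost 2 Mb of the short arms of rice chromosomes 11 and 12 form a pair of duplicated regions, referred to here as the chromosome 11 copy and the chromosome 12 copy. Their nucleosomes were taken by coordinate alone, as all entries of the nucleosome map on chromosomes 11 and 12 whose position, the mean of the listed *oschz1-1* and WT summits, was up to 2000000 bp in the MSU7 build. This gave 16151 of 1690300 nucleosomes, of which 7983 lay on chromosome 11 and 8168 on chromosome 12. The last nucleosome inside this limit lay at 1999991 bp on chromosome 11, and the first beyond it at 2000306 bp. On chromosome 12 the limit fell between nucleosomes at 1999821 and 2000081 bp.

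The map comes from MNase-seq of Nipponbare rice seedlings, in which micrococcal nuclease digests the linker DNA and the protected fragments of mononucleosome size are sequenced. The genotypes compared were *oschz1-1* and WT, each with 2 libraries from crosslinked seedlings aged 30 days and kept in long days (14 h light, 30 °C and 10 h dark, 28 °C). *oschz1-1* is a single CRISPR/Cas9 line without transgene that carries a 1-nt deletion in *OsChz1*. The table holds 1 merged value per genotype, so the spread between libraries is unknown, no difference between the genotypes was tested, and the depth of the libraries is unknown.

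The nucleosome is the repeating unit of chromatin, DNA wrapped around an octamer of histones that includes 2 dimers of H2A and H2B. OsChz1 is a histone chaperone that binds H2A-H2B and H2A.Z-H2B dimers, H2A.Z being the variant of H2A that remodelling enzymes place into nucleosomes. The short-arm ends of chromosomes 11 and 12 have been described as a recent segmental duplication, and gene conversion between them has kept long stretches of their sequence nearly alike. The age of the duplication was not examined here. A read from such a stretch can be placed on either copy. The authors kept only reads with a mapping quality of at least 20, a measure of how certain the placement is. Such a filter can remove reads that match both copies equally well. How far this shaped the map of the copies was not tested, and missing nucleosomes cannot be told apart from missing reads.

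Both copies held fewer listed nucleosomes than the same stretch of any other chromosome. The chromosome 11 copy had 3.99 nucleosomes per kb and the chromosome 12 copy 4.08, against 4.27 to 4.65 (median 4.54) over the first 2 Mb of the other 10 nuclear chromosomes and 4.51 over the whole map. The chromosome 11 density minus that of chromosome 12 was -0.0925 nucleosomes per kb, a smaller difference than that from either copy to the lowest of the other ends, chromosome 9. If each nucleosome is given a footprint of 150 bp, about the length of DNA that it wraps, nucleosomes covered 57.3% of the chromosome 11 copy and 58.5% of the chromosome 12 copy, against 60.4% to 66.2% of the other ends. The lower number was present in each genotype. In *oschz1-1* 6548 and 6742 summits were listed on chromosomes 11 and 12, against 7070 to 7832 on the other ends. In WT the numbers were 6602 and 6719 on the copies, against 7102 to 7755 on the others.

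**Figure D1:**
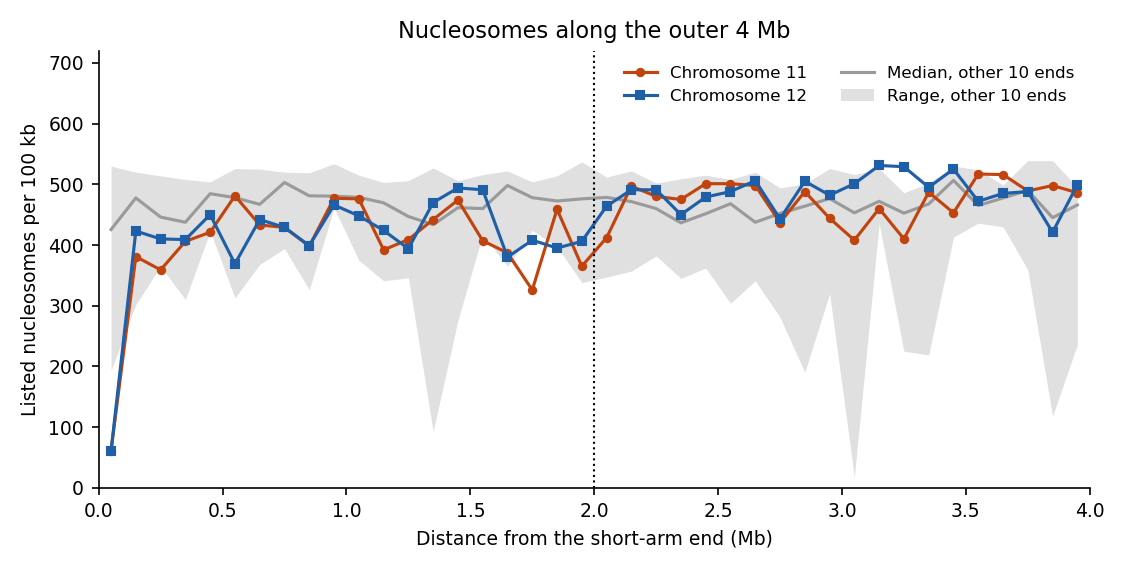
Listed nucleosomes in windows of 100 kb (y axis) by distance from the short-arm end in Mb (x axis), for the chromosome 11 copy, the chromosome 12 copy and the median and range of the other 10 nuclear chromosomes. The first window holds 61 nucleosomes in each copy, against 193 to 530 in the others, and beyond the dotted line at 2 Mb the copies no longer lie mostly under the median of the others.

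The shortfall was spread along the copies but was largest in the first 100 kb. There each copy held 61 nucleosomes, against a median of 425.5 on the other ends. Of 20 windows of 100 kb per copy, 17 on chromosome 11 and 17 on chromosome 12 held fewer nucleosomes than the median of the other ends at the same distance, and 16 did so in both copies. Outside the first window the counts lay between 326 and 481 nucleosomes per window on chromosome 11 and between 369 and 494 on chromosome 12. The fullest window of chromosome 11 was 0.5 to 0.6 Mb, with 481 nucleosomes, and the emptiest beyond the first was 1.7 to 1.8 Mb, with 326. On chromosome 12 the fullest was 1.4 to 1.5 Mb, with 494 nucleosomes, and the emptiest beyond the first was 0.5 to 0.6 Mb, with 369. The window at 0.5 to 0.6 Mb was thus the fullest of chromosome 11 and, beyond the first, the emptiest of chromosome 12. Across the 19 windows beyond the first, the counts of the copies had a Pearson correlation of 0.34 (0.87 with the first window), a description in which neighbouring windows are not independent and equal distances need not be homologous positions.

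The missing nucleosomes appeared as gaps. Distances of more than 500 bp between neighbouring nucleosomes numbered 447 on chromosome 11 and 440 on chromosome 12, against 232 to 343 (median 291.5) on the other ends. They took up 24.6% and 22.5% of the copies, against 12.7% to 20.2% of the others. Most were short. Distances over 500 and up to 1000 bp numbered 335 and 336 on the copies, against 164 to 259 on the others, a measure by which the copies were nearly equal and both outside the range. Those over 1000 and up to 2000 bp numbered 67 and 74, against 34 to 74, so here the copies lay inside the range of the others or at its upper end. Among longer gaps only chromosome 11 exceeded the others, with 34 over 2000 and up to 5000 bp (23 on chromosome 12, 11 to 29 on the others) and 11 above 5000 bp (7 on chromosome 12, 2 to 7 on the others).

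Beyond 2 Mb the order turned round. In steps of 500 kb from the end, the chromosome 11 copy had 142, 104, 93 and 107 gaps of more than 500 bp and the chromosome 12 copy 120, 119, 82 and 119, against medians of 71, 60.5, 72 and 67 on the other ends. In the next 4 steps, from 2 to 4 Mb, chromosome 11 had 48, 53, 58 and 45 such gaps and chromosome 12 had 56, 50, 35 and 57, against medians of 75.5, 71.5, 66 and 64. Summed from 2 to 4 Mb, the counts of 206 on chromosome 11 and 199 on chromosome 12 were under those of all other chromosomes (221 to 538). Nucleosomes in that interval numbered 9457 and 9745, against 7614 to 9503 on the other chromosomes, so chromosome 12 had the most of the 12 there, whereas it had the second fewest in the first 2 Mb. Within the first 2 Mb, 19 of the 20 windows of each copy had more gaps of over 500 bp than the median of the others at that distance. From 2 to 4 Mb this held for 5 of 20 windows in each.

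**Figure D2:**
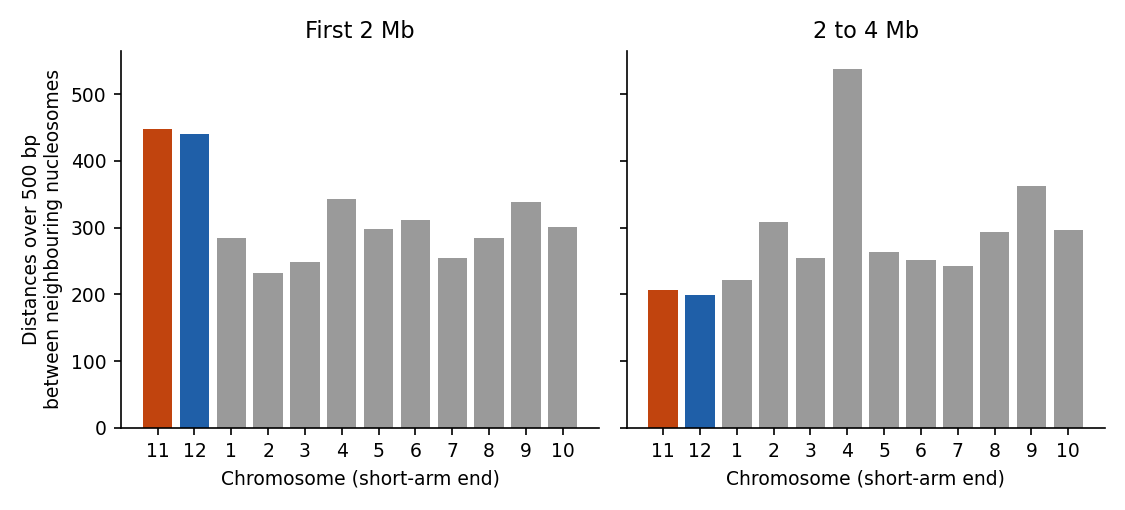
Number of distances of more than 500 bp between neighbouring nucleosomes (y axis) for each chromosome (x axis), in the first 2 Mb and from 2 to 4 Mb, with chromosomes 11 and 12 coloured. The copies have 447 and 440 such gaps in the first 2 Mb, above every other end, and 206 and 199 from 2 to 4 Mb, under every other chromosome.

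The gap-rich part of the map was most extreme next to the chromosome end. In the first 100 kb each copy held 61 nucleosomes, against 193 to 530 (median 425.5) on the other ends. Seen with the data in hand, the sparse stretch was taken to the end of the last gap of more than 4000 bp that began in the first 110 kb. It reached 107933 bp on chromosome 11, with 63 nucleosomes, and 103903.5 bp on chromosome 12, with 61. The other ends held 220 to 564 nucleosomes up to 107933 bp, the fewest on chromosome 9, whose first nucleosome lay at 37796 bp. Gaps of more than 500 bp made up 91.2% of the stretch on chromosome 11 and 92.1% on chromosome 12. Of the few nucleosomes, 21 on chromosome 11 and 15 on chromosome 12 were crowded into the first 6 kb, and the others stood alone or in small groups.

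Many islands of listed nucleosomes had a similar layout in the copies. The longest gap of chromosome 11 ran from 34043.5 to 44826 bp (10782.5 bp) and the longest of chromosome 12 from 32451 to 43236 bp (10785 bp), a difference of 2.5 bp in length. The second longest ran from 82071 to 92601 bp (10530 bp) on chromosome 11 and from 77881 to 88453.5 bp (10572.5 bp) on chromosome 12. Of the 9 gaps of more than 4000 bp per copy, several shorter ones also met a gap of similar length. A gap of 4738 bp on chromosome 11 met one of 4745 bp on chromosome 12, one of 4420 bp met 4392.5 bp, one of 6190 bp met 6150 bp, and one of 4280 bp met 4257.5 bp. Others were less alike, with 6907 bp on chromosome 11 against 7078.5 bp on chromosome 12 and 6102 bp against 6925 bp. The gap of 5850 bp at 66681 bp on chromosome 11 was nearest in length to that of 6150 bp on chromosome 12, which is the one already met by 6190 bp. The next longest gap of chromosome 12, from 58691 to 68591 bp (9900 bp), had no counterpart of that length on chromosome 11, whose own next longest lay far outside the stretch, from 1589381 to 1597676 bp (8295 bp).

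Single nucleosomes were then paired between the copies in order, where the step to the next pair differed by at most 100 bp and positions differed by at most 5000 bp. The stretch was split for this at 60000 bp of chromosome 11 into 2 blocks, a limit set after the gaps had been seen. On chromosome 12 the first block also ran to 60000 bp, but the second began 5000 bp before it, so the blocks overlapped there. Each block was paired on its own. This joined 46 pairs, or 73.0% of the 63 nucleosomes on chromosome 11 and 75.4% of the 61 on chromosome 12. As 1 chain with no split, 36 pairs were joined, all with offsets of -1675 to -1480 bp. That chain ran past the split, and its last pair was 93643.5 bp on chromosome 11 with 92071 bp on chromosome 12. With the split, 93643.5 bp was instead joined to 89501 bp, and 92071 bp to 96261 bp on chromosome 11. The partner of a nucleosome could therefore depend on the split. In the first block, 34 pairs from 2671 to 54538.5 bp on chromosome 11 met 1191 to 52941 bp on chromosome 12, and the chromosome 12 position minus the chromosome 11 position lay between -1675 and -1480 bp. In the second block, 12 pairs from 60181 to 101026 bp on chromosome 11 met 56306 to 96825 bp on chromosome 12, with offsets of -4212.5 to -3860 bp. The rule keeps the longest possible chain, so the number of pairs and the near-constant offset within a block follow in part from it. This holds most where nucleosomes are crowded, as in the first 6 kb. Other chromosome ends were not paired in this way, so whether 46 pairs exceed those of unrelated ends was not tested. The place where the offset changes was set by the split.

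**Figure D3:**
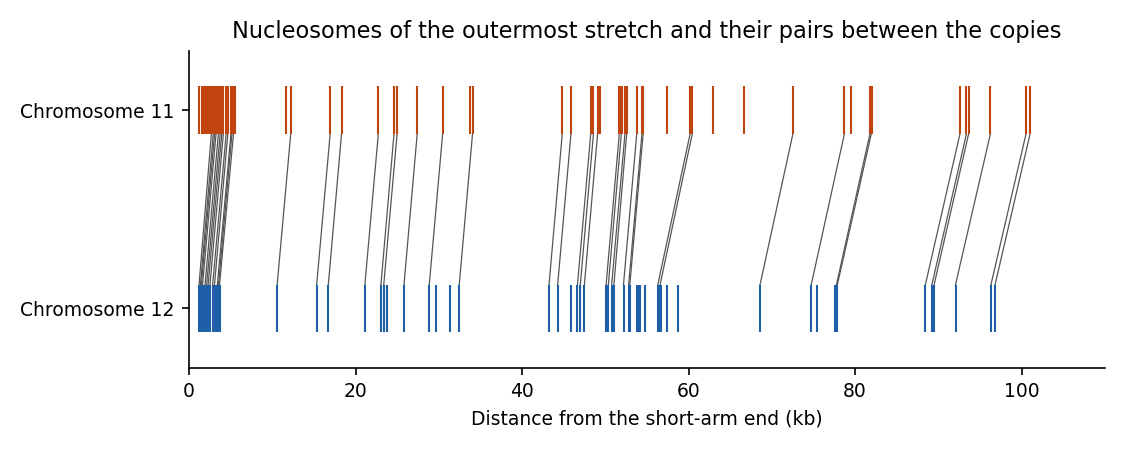
Each vertical tick is a listed nucleosome of the sparse outermost stretch, by distance from the short-arm end in kb (x axis), on chromosome 11 (top) and chromosome 12 (bottom), and grey lines join the 46 pairs. Long gaps such as those of 10782.5 and 10785 bp stand opposite each other. The lines lean further in the second block, which was paired on its own from 60000 bp of chromosome 11.

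At paired nucleosomes the summit value, the scaled signal at the peak of a nucleosome and the measure of its occupancy, was correlated between the copies, and the log2 ratio between the genotypes was not. Over the 46 pairs the Pearson correlation of the summit values on chromosomes 11 and 12 was 0.50 in *oschz1-1* and 0.63 in WT. For the log2 ratio of *oschz1-1* over WT, taken after adding a pseudocount of 1, it was -0.038. All pairs come from the same libraries and 1 sparse stretch, so these values are a description. The log2 ratio had the same sign in both copies in 24 of 46 pairs. At least 2-fold higher in *oschz1-1* were 6 (13%) of the paired nucleosomes on chromosome 11 and 4 (8.70%) on chromosome 12, where 8.02% of the whole map was. At least 2-fold lower were 2 (4.35%) on chromosome 11 and 6 (13%) on chromosome 12, where 7.79% of the map was.

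In 3 pairs the values were as follows. At 44826 bp on chromosome 11, beyond the longest gap, the summit value was 6.51 in *oschz1-1* and 10.0 in WT, and at its partner at 43236 bp on chromosome 12 it was 10.5 in *oschz1-1* and 11.4 in WT, so both were lower in the mutant. At 93381 bp on chromosome 11 it was 15.7 in *oschz1-1* and 1.85 in WT, whereas the partner at 89236 bp on chromosome 12 had 11.3 in *oschz1-1* and 13.7 in WT. At 18306 bp on chromosome 11 it was 22.1 in *oschz1-1* and 21.1 in WT, and at 16721 bp on chromosome 12 it was 8.28 in *oschz1-1* and 25.6 in WT. In the last 2 of these pairs 1 copy differed by more than 2-fold between the genotypes and the other by less. These pairs were chosen after their values were seen.

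Over the whole sparse stretch the medians of the copies had opposite signs. The median summit value on chromosome 11 was 15.0 in *oschz1-1* and 11.6 in WT, and on chromosome 12 it was 12.7 in *oschz1-1* and 13.4 in WT. The median log2 ratio was 0.24 on chromosome 11 and -0.092 on chromosome 12. Of the 63 nucleosomes on chromosome 11, 8 (12.7%) were at least 2-fold higher and 3 (4.76%) at least 2-fold lower in *oschz1-1*. Of the 61 on chromosome 12, 5 (8.20%) were higher and 8 (13.1%) lower. Over the map the shares were 8.02% higher and 7.79% lower. With so few nucleosomes and 1 value per genotype, whether these medians differ beyond the error could not be tested.

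The number of short gaps did not rest on this stretch, whereas the excess of long ones on chromosome 11 over the range of the others did. Without the first 110 kb of each chromosome, 418 gaps of more than 500 bp were left on chromosome 11 and 407 on chromosome 12, against 219 to 318 on the other ends. The density was then 4.18 and 4.28 nucleosomes per kb, against 4.40 to 4.72. Gaps of more than 500 bp then took up 20.7% of chromosome 11 and 18.7% of chromosome 12, against 12% to 19.4%, so by this share chromosome 12 lay inside the range of the others. Gaps of more than 1000 bp numbered 87 and 80, against 46 to 93 (median 65.5). Those of more than 2000 bp numbered 24 and 16, against 13 to 27 (median 19.5), so both copies lay inside the range for these. With the first 110 kb, chromosome 11 had 112 gaps over 1000 bp and 45 over 2000 bp, above the other ends (56 to 106 and 15 to 32). Chromosome 12, with 104 and 30, already lay inside those ranges.

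The nucleosomes that were listed had slightly lower occupancy and a slightly narrower spread than on the other ends. The median summit value in *oschz1-1* was 14.6 on chromosome 11 and 14.8 on chromosome 12, against 14.8 to 15.5 on the other ends, and chromosome 12 equalled the lowest of them. In WT it was 14.9 on chromosome 11 and 14.9 on chromosome 12, against 15.0 to 15.6. Nucleosomes whose mean summit value was under 11.9, the lower quartile of the map, made up 28.5% of the chromosome 11 copy and 27.2% of the chromosome 12 copy, against 23.8% to 26.3% of the other ends. Fuzziness, a score of how far the fragments of a nucleosome scatter around its centre, had medians of 53.2 and 53.3 on the copies in *oschz1-1*, against 53.8 to 54.3 on the others. In WT the medians were 53.0 and 53.3 on the copies, against 53.7 to 54.3. By fuzziness the copies were the lowest 2 of 12 in both genotypes.

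**Figure D4:**
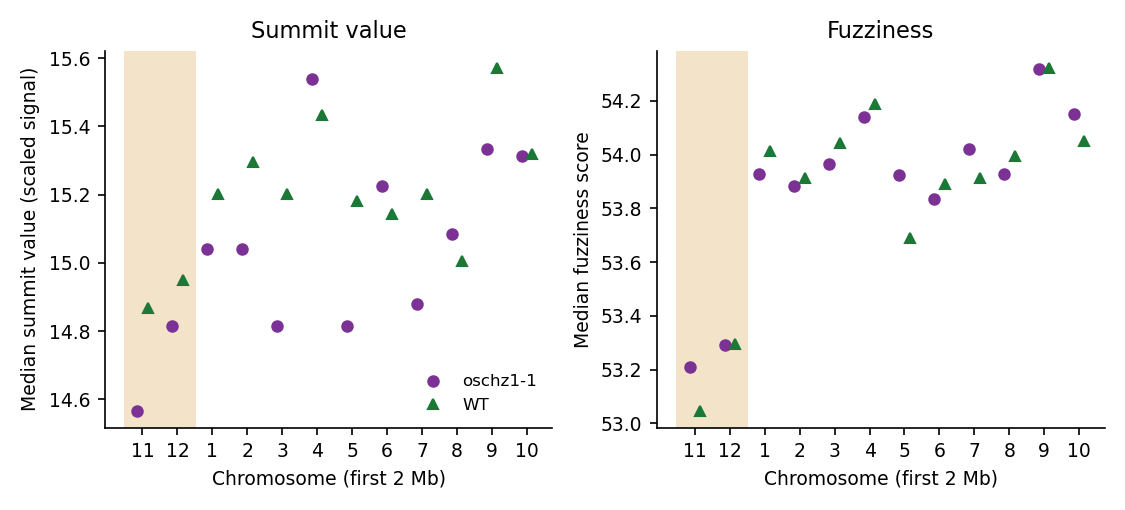
Median summit value (left, scaled signal) and median fuzziness score (right) of the nucleosomes in the first 2 Mb of each chromosome, in *oschz1-1* (circles) and WT (triangles), with the 2 copies shaded and axes that do not start at 0. Fuzziness on chromosomes 11 and 12 lies at 53.0 to 53.3, under all other ends (53.7 to 54.3), in both genotypes.

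Nucleosomes next to a gap had lower median fuzziness than the rest on every chromosome end. Their median summit value was also lower, except on chromosome 3 in *oschz1-1* (15.1 next to a gap, 14.8 away from gaps). Nucleosomes with a neighbour more than 500 bp away made up 796 (9.97%) of the chromosome 11 copy and 761 (9.32%) of the chromosome 12 copy, against 4.57% to 7.03% of the other ends. On the copies their median fuzziness was 48.9 and 48.2 in *oschz1-1* and 48.7 and 48.5 in WT, inside the range of such nucleosomes on the other ends. Their median summit value in *oschz1-1* was 13.5 on chromosome 11 and 13.2 on chromosome 12, under the 13.9 to 15.1 of the other ends. In WT it was 13.5 on both, equal to the lowest of the others (13.5 to 15.1). A mean summit value under the lower quartile was found in 37.6% and 37.8% of them, against 28.2% to 35.8%. Among the 7187 and 7407 nucleosomes away from gaps, median fuzziness was 53.5 and 53.7 on the copies in *oschz1-1*, against 54.1 to 54.6 on the others. In WT it was 53.5 and 53.6, against 53.9 to 54.7, so both copies stayed the lowest without the gap edges. The summit value of these nucleosomes stayed lowest on chromosome 11 alone. It was 14.8 on chromosome 11 and 14.9 on chromosome 12 in *oschz1-1*, against 14.8 to 15.7, and 15.0 and 15.1 in WT, against 15.1 to 15.7. The part of the mapping filter in these values was not tested.

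Neighbouring summits were spaced as on other arms. The median distance between summits up to 300 bp apart was 185 bp on chromosome 11 and 180 bp on chromosome 12 in *oschz1-1*, and 180 bp on both in WT. The other ends had 180 bp in both genotypes. Positions were listed mostly on a grid of 10 bp, so the difference of 5 bp is finer than the grid.

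Median occupancy of the copies differed little between the genotypes. How the values were scaled between the genotypes is not given, so a difference common to the whole genome may not show. The median log2 ratio of *oschz1-1* over WT was -0.031 on chromosome 11 and -0.021 on chromosome 12, inside the range of -0.036 to 0.017 over the other ends. Over the whole map it was 0.00079. The window medians were under 0 in 14 of 20 windows on chromosome 11 and in 13 of 20 on chromosome 12, and 15 of 20 in each copy lay inside the range of the other ends at that distance. On chromosome 11 the highest window median was the first, with 0.25 over 61 nucleosomes, and the lowest was 0.4 to 0.5 Mb, with -0.11 over 421. On chromosome 12 the highest was 1.0 to 1.1 Mb, with 0.091 over 448 nucleosomes, and the lowest was 1.3 to 1.4 Mb, with -0.10 over 470. The window medians of the copies had the same sign in 9 of 20 windows and a Pearson correlation of -0.23, whose sign rested on the first window. Over the other 19 windows the correlation was 0.17.

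**Figure D5:**
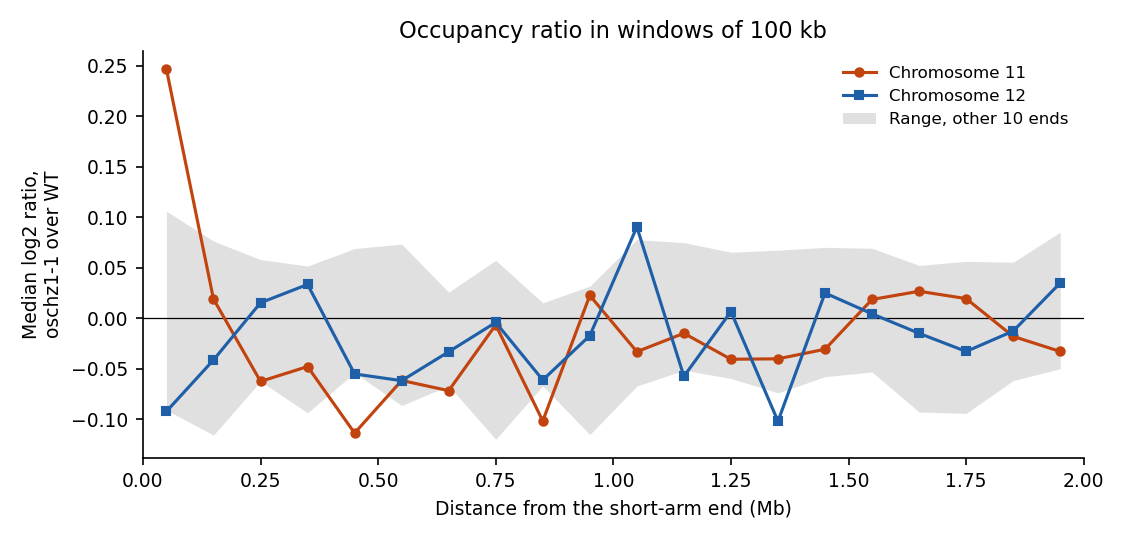
Median log2 ratio of *oschz1-1* over WT (y axis, pseudocount 1) in windows of 100 kb by distance from the short-arm end in Mb (x axis), for the copies and the range of the other 10 nuclear chromosomes. The first window of chromosome 11 stands highest at 0.25, and 15 of 20 windows of each copy lie inside the grey range.

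Single nucleosomes differed in both directions at about the rate of the map. In the chromosome 11 copy 627 nucleosomes (7.85%) were at least 2-fold higher in *oschz1-1*, and in the chromosome 12 copy 679 (8.31%), where 8.02% of the whole map was. At least 2-fold lower were 683 (8.56%) on chromosome 11 and 708 (8.67%) on chromosome 12, where 7.79% of the map was. The other ends reached 7.20% to 8.36% in the higher and 7.14% to 9.06% in the lower direction, so all 4 shares of the copies lay inside those ranges. Both directions together came to 16.4% on chromosome 11 and 17.0% on chromosome 12, against 14.8% to 16.8% of the other ends, so chromosome 12 was the highest of the 12 by this sum. Over the map the sum was 15.8%. Lower nucleosomes outnumbered higher ones by 56 on chromosome 11 and by 29 on chromosome 12. Over the whole map the higher ones were more, with 135608 higher and 131658 lower.

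Nearly all of these were nucleosomes listed in 1 genotype. Of the 627 higher on chromosome 11, 579 had a summit in *oschz1-1* only and 47 in both genotypes, and of the 683 lower, 619 had a summit in WT only and 64 in both. On chromosome 12, 609 of 679 higher nucleosomes had a summit in *oschz1-1* only and 635 of 708 lower ones in WT only. The median summit values of the higher nucleosomes on chromosome 11 were 15.4 in *oschz1-1* and 5.20 in WT, and on chromosome 12 they were 15.9 in *oschz1-1* and 5.31 in WT. A nucleosome called here therefore had typical occupancy in one genotype and a low signal, rarely none, in the other. A value of 0 was listed for 6 of the 16151 nucleosomes of the copies in *oschz1-1* and 3 in WT. Over the 1690300 nucleosomes of the map it was listed for 387 in *oschz1-1* and 2159 in WT.

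In all, 1381 nucleosomes (17.3%) on chromosome 11 and 1449 (17.7%) on chromosome 12 had a summit in *oschz1-1* only, against 17.4% of the map and 16.7% to 17.9% of the other ends. A summit in WT only was listed for 1435 (18.0%) on chromosome 11 and 1426 (17.5%) on chromosome 12, against 16.5% of the map and 15.8% to 17.6% of the other ends. The chromosome 11 share was the highest of the 12, by less than 1 percentage point. Summits in both genotypes were listed for 5167 nucleosomes (64.7%) on chromosome 11 and 5293 (64.8%) on chromosome 12. The share was 66.1% over the map and 64.6% to 67.5% on the other ends.

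Where both genotypes had a summit, the shares of shifted positions lay within those of the other ends. A forward shift, in which the *oschz1-1* summit lay 50 to 90 bp towards higher coordinates, was found at 529 nucleosomes (10.2%) on chromosome 11 and 546 (10.3%) on chromosome 12, against 11.2% of the map and 9.81% to 12.3% of the other ends. A reverse shift was found at 558 (10.8%) and 553 (10.4%), against 11.2% of the map and 10.3% to 11.6% of the other ends. Summits at exactly the same position made up 11.2% on chromosome 11 and 11.8% on chromosome 12, and the median size of a shift was 20 bp in both copies and on all other ends.

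The largest single differences were scattered over the copies. They were taken among nucleosomes with a mean summit value of at least 11.9, which 5707 of 7983 on chromosome 11 and 5949 of 8168 on chromosome 12 reached. On chromosome 11 the highest ratio was at 681671 bp, with 23.8 in *oschz1-1* and 1.11 in WT (log2 ratio 3.56). The next stood at 133656 bp, with 22.0 in *oschz1-1* and 2.22 in WT, and at 459996 bp, with 24.6 in *oschz1-1* and 4.20 in WT. All 3 had a summit in *oschz1-1* only, and listed neighbours 95 to 225 bp away on either side. At 681671 and 133656 bp a neighbour lay closer than the footprint of 150 bp, so listed entries overlapped there.

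The lowest ratio of chromosome 11 was at 290191 bp, with 2.64 in *oschz1-1* and 22.2 in WT (log2 ratio -2.67). It was followed by 1154521 bp, with 3.28 in *oschz1-1* and 22.9 in WT, and by 1266521 bp, with 3.89 in *oschz1-1* and 25.5 in WT. These had a summit in WT only. Listed entries overlapped here too, with neighbours 100 and 140 bp from 290191 bp and 130 and 100 bp from 1266521 bp.

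The highest ratio of chromosome 12 was at 850961 bp, where *oschz1-1* had 33.6 and WT was listed at 0, so no fold is given. This nucleosome bordered a gap of 825 bp. At 1741821 bp *oschz1-1* had 27.5 and WT 2.73 (log2 ratio 2.94), and at 1610091 bp *oschz1-1* had 23.1 and WT 2.78. In the other direction, the nucleosome at 945671 bp had 2.39 in *oschz1-1* and 27.5 in WT (log2 ratio -3.07). At 377431 bp the values were 3.48 in *oschz1-1* and 25.6 in WT, and at 1848791 bp they were 3.91 in *oschz1-1* and 27.9 in WT. Each of these 6 also had a summit in 1 genotype only, and none of the 12 named nucleosomes of the copies lay in the sparse outermost stretch. On chromosome 12 a neighbour lay closer than 150 bp at 1610091 bp (140 bp), 945671 bp (95 bp) and 1848791 bp (100 bp). Genes at the positions of the 12 named nucleosomes were not analysed here.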

How the data were processed

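The authors trimmed reads, mapped pairs to MSU7 with Bowtie2 v2.3.4.1, removed reads of mapping quality under 20 and potential PCR duplicates with Samtools, and positioned nucleosomes with DANPOS, whose options are not given in the sources used here. The deposited table has 17 columns, and 0 value columns were left unmapped. Its summit and point values are a signal scaled by the authors with DANPOS, with replicates merged. Its fuzziness is a score deposited by the authors. Its positions are base coordinates, deposited by the authors. The control columns were taken as WT and the treated columns as *oschz1-1*. The authors' own comparison (p-values, FDR and distances between summits) was not used, nor were the point values, which are read where the maps differ most.

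From the deposited positions and values, gaps, 150-bp coverage, log2 ratios (pseudocount 1, called at 2-fold), shifts and pairs of nucleosomes were computed with Python 3.11.15, numpy 2.4.6 and pandas 2.3.3, and drawn with matplotlib 3.10.9. In simulated data of 8000 nucleosomes, all 100 gaps, 200 higher and 300 lower nucleosomes, 150 forward and 250 reverse shifts and 40 pairs put in were found. This checks the code only. The changes put in lay past the thresholds, and the pairs were positions and their own shifted copy, so false pairing could not show.

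The members, lists and settings were chosen with earlier results of these data known. The nucleosomes named one by one are the 3 highest and 3 lowest log2 ratios per copy at or above the lower quartile of mean value. The gaps are the 3 longest per copy, and the windows are those extreme in log2 ratio or number. Other gaps, pairs and the sparse stretch were chosen after their values were seen. Alternatives covered the reach, gap length, pseudocount, fold, filters, shift distance and spacing limit. With 1 merged value per genotype there was no test, and an interval of a median over nucleosomes served only to sort the alternatives. A genome or annotation of MSU7 was not used, so no sequence or gene is given.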

Additional observations from a re-analysis of the deposited data

How the results depend on the processing

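Of 214 alternatives to 31 values, 148 stayed within 1.5 times the count or within the binomial interval of a median over nucleosomes, and 66 did not. Neither median log2 ratio changed sign (-0.040 to -0.024 on chromosome 11, -0.030 to -0.015 on chromosome 12). In the following, values are for chromosome 11 and then chromosome 12.

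Gaps per Mb were 223.5 and 220 above 500 bp and 22.5 and 15 above 2000 bp. Higher nucleosomes per Mb were 130.5 and 154.5 with a pseudocount of 5, 725.5 and 798.5 at 1.5-fold, 82 and 95 at 3-fold, 103.5 and 129.5 at or above the lower quartile, and 23.5 and 34.5 with summits in both genotypes. Lower ones were 155.5 and 156.5, 799.5 and 790, 92.5 and 103, 124 and 129.5, and 32 and 36 in the same order of settings. At or above the lower quartile, summits per Mb in *oschz1-1* only were 205.5 and 236 and in WT only 217 and 228. Shifts of 70 to 90 bp per Mb were 96.5 and 89.5 forward and 83 and 96.5 reverse, and reverse shifts of 40 to 90 bp on chromosome 12 were 416.

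With summits in both genotypes, median summit values were 16.6 and 16.8 in *oschz1-1* and 17.1 and 17.1 in WT, and fuzziness 52.1 and 52.2 in *oschz1-1* and 51.9 and 52.2 in WT. Over the first 1 Mb, chromosome 11 had a summit value of 14.4 in *oschz1-1* and fuzziness of 53.0 in *oschz1-1* and 52.8 in WT. Over 3 Mb, summit values were 14.8 and 15.0 in *oschz1-1* and, on chromosome 12, 15.1 in WT, and fuzziness was 53.5 and 53.6 in *oschz1-1* and 53.3 and 53.5 in WT. Over 2.5 Mb, chromosome 12 had a fuzziness of 53.5 in *oschz1-1* and 53.5 in WT. Without nucleosomes next to a gap, chosen after seeing the data, fuzziness was 53.5 and 53.7 in *oschz1-1* and 53.5 and 53.6 in WT, and the summit value on chromosome 12 was 15.1 in WT. Spacing was 200 and 190 bp in *oschz1-1* and 190 and 190 bp in WT with distances up to 400 bp, and 210 bp in all 4 with no limit. The settings take in other nucleosomes or distances by construction, and no further cause was tested.

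Pairing with steps within 50 or 200 bp, and leaving out the first 110 kb, were also chosen after seeing the data. These steps gave 42 and 50 pairs, and pairing as 1 chain, also chosen later, gave 36. Alignment of the copies was not run, since the genome of that build was not used. No paired analysis was possible because each genotype has 1 merged value, so no replicate could be left out either. The limits are the missing spread between libraries, the unknown depth, and a mapping filter whose effect on the copies was not tested.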
